A study of Mus musculus with 24 samples.

Results

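A set of 10 genes that define astrocytes or carry their housekeeping work was followed through 24 brain libraries. They are Slc1a2, Slc1a3, Aqp4, Aldh1l1, Gja1, Glul, Aldoc, S100b, Sox9 and Gjb6, chosen by symbol, and all 10 were found among the 54532 genes of the count tables. The mice were C57BL/6J, fed without restriction, and carried either a tamoxifen-induced Polr3a mutation or the wild type gene; mutants and wild types alike had received tamoxifen at postnatal day 28 (P28). The Polr3a protein is the largest catalytic subunit of RNA polymerase III, the enzyme that transcribes transfer RNAs and other small structural RNAs. Cerebrum was taken at P42 and at P75, and cerebellum at P42, each from Polr3a mutants and wild types, which gave 6 groups of 4 libraries. At P42 the cerebrum groups each held 2 males and 2 females, the mutant cerebellum group 2 males and 2 females, and the wild type cerebellum group 3 males and 1 female; all P75 libraries were from males. Neither the recombinase line, nor the cells in which recombination took place, nor the recombinase status of the wild types is stated in the labels.

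Astrocytes clear glutamate from synapses through the transporters of Slc1a2 (GLT-1, EAAT2) and Slc1a3 (GLAST, EAAT1), and turn it into glutamine with glutamine synthetase (Glul). They move water across their vascular endfeet through aquaporin-4 (Aqp4) and pass ions and small molecules to each other through connexin 43 (Gja1) and connexin 30 (Gjb6). Aldh1l1, a folate enzyme, Aldoc, a glycolytic aldolase, S100b, a calcium-binding protein, and Sox9, a transcription factor of the astrocyte lineage, are used to identify the cells. In cerebellum the Bergmann glia, which line Purkinje cell dendrites, are rich in GLAST, and Aldoc is also made by a subset of Purkinje cells, where it is known as zebrin II. S100b is also made by some oligodendrocytes.

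Libraries held 13832721 to 23175864 counts, of which the 10 genes together took 0.575% to 0.808%. Levels are counts-per-million values (CPM) with TMM scaling, a scaling that makes the bulk of genes equal between libraries, computed within each deposited table (P42 with 16 libraries, P75 with 8). The Polr3a transcript itself did not tell the genotypes apart, with log2 differences of -0.14 ± 0.11 (SE, adjusted p = 0.562) in cerebrum at P42, 0.10 ± 0.13 (adjusted p = 0.984) in cerebellum and -0.10 ± 0.09 (adjusted p = 0.542) in cerebrum at P75 by edgeR's quasi-likelihood test. Esr1, the estrogen receptor gene whose ligand-binding part is commonly built into tamoxifen-inducible recombinases, did: every mutant library had 39.9 to 130 CPM and every wild type library 1.57 to 9.66 CPM. It was named after its values were seen, and the source of these counts was not tested. The tissue labels were borne out by markers: in wild types all 8 Purkinje cell and all 8 granule neuron genes were lower in cerebrum, and 8 of 10 cortical neuron genes were higher. Several libraries stood apart within their group. In cerebrum at P42, mutants 3 and 4 had less of the cortical neuron markers (mean log2 CPM 4.02 and 4.72) than mutants 1 and 2 (6.79 and 6.24) or the wild types (6.27 to 7.33). Those 2 mutants also had the most of 26 thalamus, hypothalamus and midbrain markers, at 5.43 and 5.20 against 1.90 to 3.76 in wild types. In cerebellum, mutants 2 and 4 had low granule neuron markers (7.29 and 6.82, against 7.72 to 8.27 in wild types). Mutants 1 and 3 lay above every wild type for them (8.43 and 8.35). Choroid plexus markers were below all wild types (4.69 to 5.05) in all 4 cerebellar mutants, at 1.35, 4.18, 3.84 and 4.16, with mutant 1 lowest. Cerebellar markers were raised in cerebrum wild type 1 (granule neuron 3.98, Purkinje cell 5.66) and cerebrum mutant 4 (4.40 and 5.39), against 0.86 to 3.13 and 3.96 to 4.60 in the other cerebrum libraries at P42. Whether the dissection differed was not tested. Comparisons that use cerebrum mutants 3 and 4, or cerebellar mutants 2 and 4, are given with and without each pair.

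The order of levels was read per kilobase of the gene length that the deposited table gives, in CPM per kb. In wild type cerebrum at P42, Glul led at 495 ± 43.6 (SD, n = 4), followed by Slc1a2 at 291 ± 50.1 and Aldoc at 211 ± 47.3. Slc1a3 (68.4 ± 7.82), S100b (64.8 ± 5.73) and Aqp4 (33.4 ± 12.9) formed the middle, and Gjb6 (27.8 ± 2.95), Gja1 (18.9 ± 2.62), Aldh1l1 (13.2 ± 2.49) and Sox9 (8.06 ± 2.14) the lower end. Neighbours in this order whose libraries overlapped were Slc1a2 and Aldoc, Slc1a3 and S100b, Aqp4 and Gjb6, and Aldh1l1 and Sox9. In wild type cerebellum Aldoc (472 ± 61.7) and Glul (417 ± 75.2) headed the order and overlapped, S100b came next at 205 ± 13.7, and Slc1a3 (101 ± 17.2) and Slc1a2 (96.7 ± 9.64) overlapped behind it. Aqp4, Gjb6, Gja1, Aldh1l1 and Sox9 held the lower places in that order in both tissues.

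**Figure D1:**
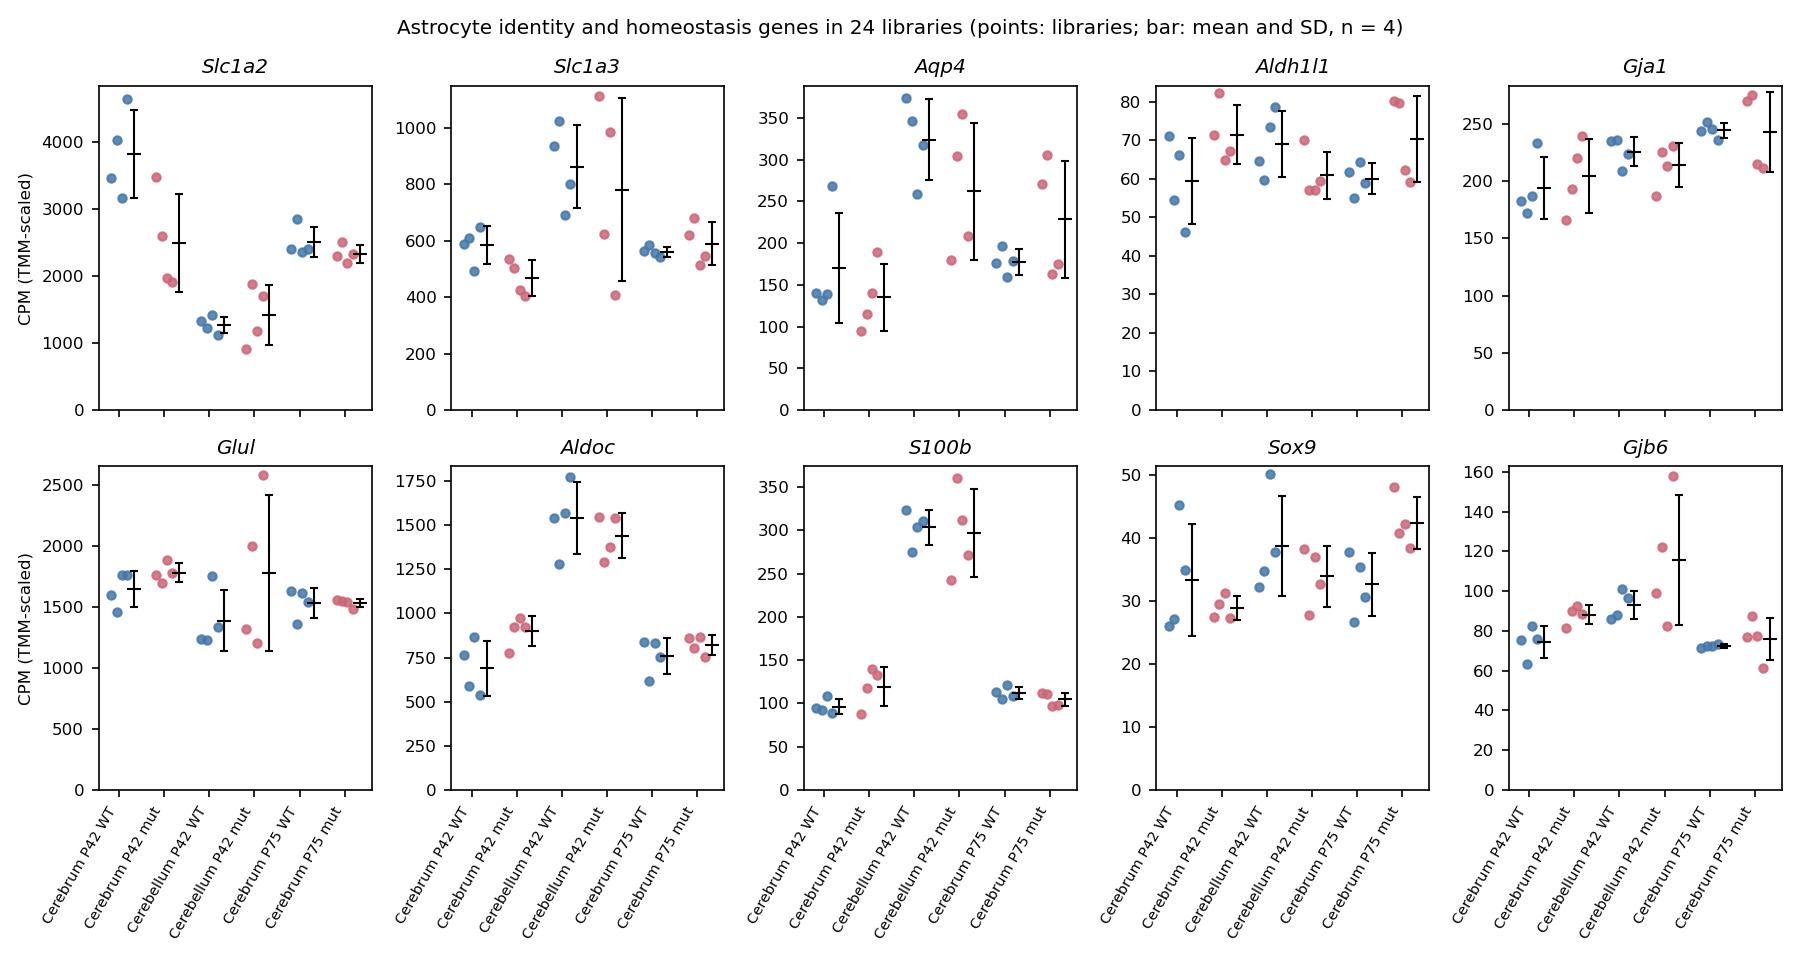
Level of each of the 10 astrocyte genes in every library (y axis, TMM-scaled CPM; x axis, the 6 groups; blue, wild type; red, mutant; bar, mean and SD of 4 libraries). Slc1a2 stands higher in cerebrum than in cerebellum, S100b and Aldoc stand higher in cerebellum, and cerebellar mutants spread widely for Slc1a3, Glul and Gjb6.

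The first comparison asked which of these genes differ between the brain parts in wild types at P42. Of the 10, 5 passed an adjusted p of 0.05 in edgeR's quasi-likelihood test over all 17964 genes tested, where 30.5% of genes passed. Slc1a2 was higher in cerebrum, and Slc1a3, Aqp4, Aldoc and S100b were lower in cerebrum. Over all genes 2943 were higher and 2529 lower, a split that turned to 2424 and 3500 with library size alone, which moved the median gene to -0.15 on the log2 scale; none of the 5 changed direction under it. In bulk tissue, fewer cells of a type and less RNA per cell cannot be told apart.

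The glutamate transporter Slc1a2 (ENSMUSG00000005089, chromosome 2, 102658659 to 102790784, plus strand, mm10) had 3463, 4028, 3163 and 4653 CPM in wild type cerebrum and 1323, 1219, 1414 and 1122 CPM in wild type cerebellum. The lowest cerebrum library was above the highest cerebellum library by a wide margin. The ratio of means was 3.01, and the log2 difference 1.58 ± 0.16 (SE, adjusted p = 5.2e-05 by edgeR). The second transporter, Slc1a3 (ENSMUSG00000005360, chromosome 15, 8634124 to 8710764, minus strand), ran the other way, with 589, 610, 491 and 647 CPM in cerebrum and 934, 1024, 691 and 800 CPM in cerebellum. Its groups did not overlap either, as was so for 36.8% of all genes (19.1% of all genes with cerebrum lower). The log2 difference of Slc1a3 was -0.55 ± 0.16 (adjusted p = 0.0265). That call was lost without cerebrum wild type 1 (-0.57, adjusted p = 0.0547), 2 (-0.55, adjusted p = 0.0545) or 3 (-0.43, adjusted p = 0.123), and without cerebellum wild type 1 (-0.51, adjusted p = 0.0687) or 2 (-0.46, adjusted p = 0.0549). Slc1a2, Aqp4, Aldoc and S100b passed without any one library, cerebrum wild type 1 included.

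Because both transporters were counted in the same library, their ratio per kilobase does not depend on the scaling between libraries. Slc1a2 exceeded Slc1a3 4.24 ± 0.348-fold (SD, n = 4) in wild type cerebrum at P42, while the ratio was 0.984 ± 0.240 in wild type cerebellum. In wild type cerebrum at P75, from the separate table, it was 2.90 ± 0.184.

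Promoter sequences are shown for both transporters, which ran opposite ways between the tissues, and for S100b, which had the strongest difference towards cerebellum of the 10. They are RefSeq windows on GRCm38.p6, from 250 bases before to 50 bases after the annotated start: chr2:102706188-102706487 (plus strand, inside the deposited Slc1a2 span), chr15:8710758-8711057 (minus strand) and chr10:76253586-76253885 (plus strand). Capitals mark the letters ACAAT or its reverse complement ATTGT, the core that SOX factors recognise, and TTGGC or its reverse complement GCCAA, the half-site of nuclear factor I, both of them factor families of the astrocyte lineage.
Slc1a2: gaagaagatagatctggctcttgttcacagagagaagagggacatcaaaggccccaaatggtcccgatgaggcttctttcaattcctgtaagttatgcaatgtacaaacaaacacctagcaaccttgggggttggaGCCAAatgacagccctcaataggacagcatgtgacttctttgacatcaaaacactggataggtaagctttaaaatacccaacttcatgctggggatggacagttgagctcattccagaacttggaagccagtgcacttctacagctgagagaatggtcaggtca
Slc1a3: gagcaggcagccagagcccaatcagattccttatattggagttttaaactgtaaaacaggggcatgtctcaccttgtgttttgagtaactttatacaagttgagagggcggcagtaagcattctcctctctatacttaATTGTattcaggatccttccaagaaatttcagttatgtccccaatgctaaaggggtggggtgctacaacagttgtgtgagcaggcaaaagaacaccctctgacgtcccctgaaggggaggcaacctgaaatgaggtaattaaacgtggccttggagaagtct
S100b: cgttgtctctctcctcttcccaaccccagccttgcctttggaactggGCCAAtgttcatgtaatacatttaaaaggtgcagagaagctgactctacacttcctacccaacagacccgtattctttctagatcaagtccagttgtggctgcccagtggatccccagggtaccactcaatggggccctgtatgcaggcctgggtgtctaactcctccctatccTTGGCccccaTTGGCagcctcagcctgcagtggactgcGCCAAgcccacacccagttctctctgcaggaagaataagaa
The Slc1a2 window holds 1 half-site and no SOX core, the Slc1a3 window 1 SOX core and no half-site, and the S100b window 4 half-sites and no SOX core. None of these matches overlap each other. Of the 8 genes with a RefSeq window in the table used, 2 hold the SOX core and 4 the half-site; over all 32817 windows the shares were 31.0% and 46.7%. These matches describe letters only.

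The remaining genes that differed in wild types were all lower in cerebrum. S100b (ENSMUSG00000033208, chromosome 10, 76253853 to 76261159) had 94.3, 92.1, 109 and 89.6 CPM in cerebrum and 324, 276, 304 and 311 CPM in cerebellum. The groups lay far apart, with a ratio of means of 0.317 and a log2 difference of -1.61 ± 0.12 (adjusted p = 5.2e-06). Its antisense neighbour Dip2a, which shares no exon base with S100b, also passed, at -0.40 ± 0.11 (adjusted p = 0.0196); whether counting used strand is not given in the sources used here. Aldoc (ENSMUSG00000017390, chromosome 11, 78322968 to 78327781) had 763, 587, 869 and 536 CPM in cerebrum against 1541, 1282, 1567 and 1773 CPM in cerebellum. Every cerebellum library was above every cerebrum library, and the log2 difference was -1.11 ± 0.17 (adjusted p = 6.4e-04). Beside it, the 8 Purkinje cell markers had a median log2 difference of -3.22; the part of Purkinje cells in the Aldoc difference was not tested. Oligodendrocyte markers, which bear on S100b, were lower in cerebrum for 5 of 10, with a median of -0.50.

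Aqp4 (ENSMUSG00000024411, chromosome 18, 15389394 to 15403684) had 141, 132, 139 and 268 CPM in wild type cerebrum and 374, 346, 259 and 317 CPM in cerebellum. Its groups touched, since cerebrum wild type 4 reached into the cerebellar range, and the log2 difference was -0.99 ± 0.24 (adjusted p = 0.0102). Glul (chromosome 1, 153899944 to 153909723) had 1461 to 1763 CPM in cerebrum and 1227 to 1755 CPM in cerebellum, a log2 difference of 0.30 ± 0.16 that missed the threshold (adjusted p = 0.178). The connexin genes Gja1 (chromosome 10, 56377330 to 56402513) and Gjb6 (chromosome 14, 57123303 to 57133611) missed it at -0.21 ± 0.13 (adjusted p = 0.277) and -0.27 ± 0.12 (adjusted p = 0.117). All Gjb6 libraries of cerebrum (63.5 to 82.5 CPM) nevertheless lay below those of cerebellum (86.1 to 101 CPM). Aldh1l1 (chromosome 6, 90486427 to 90600203) and Sox9 (chromosome 11, 112782224 to 112787760) had differences of -0.16 ± 0.15 (95% interval -0.50 to 0.17) and -0.15 ± 0.21 (-0.62 to 0.31).

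**Figure D2:**
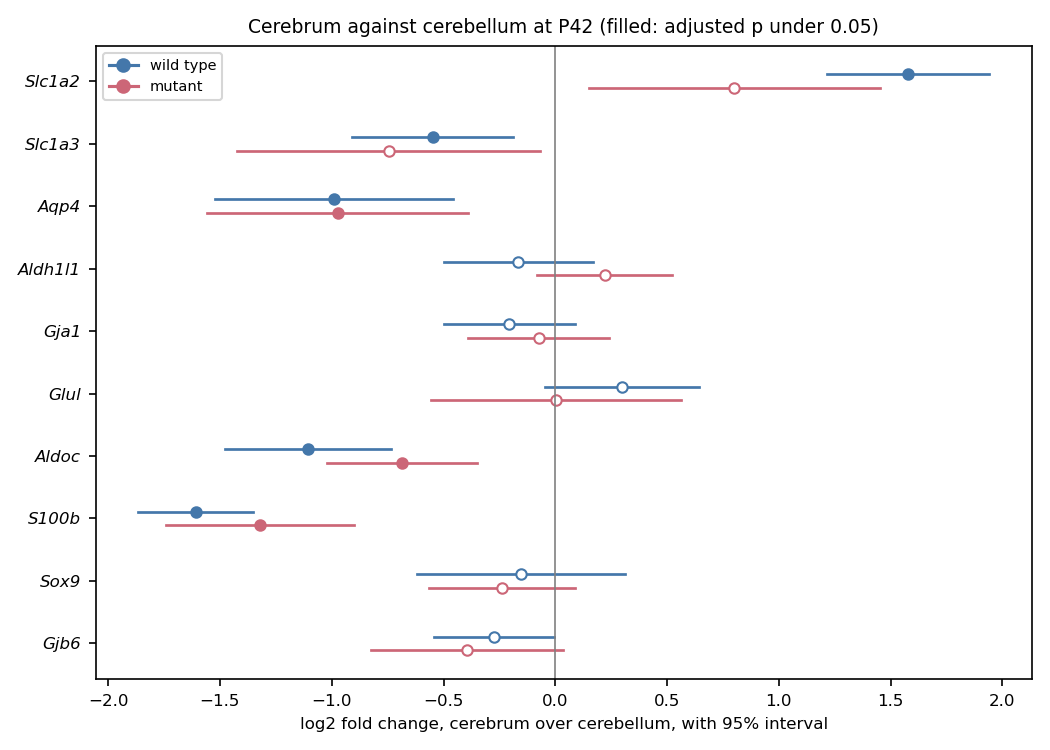
Log2 fold change of cerebrum over cerebellum at P42 (x axis) for each gene (y axis) in wild types (blue) and mutants (red), with 95% intervals; filled points passed an adjusted p of 0.05. In wild types Slc1a2 lies at 1.58 and S100b at -1.61; in mutants the filled points are Aqp4, Aldoc and S100b.

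In mutants the same tissue comparison called 3 of 10 genes, against 13.8% of 18134 genes tested. S100b was lower in cerebrum by a log2 difference of -1.32 ± 0.18 (adjusted p = 0.00361), Aldoc by -0.69 ± 0.15 (adjusted p = 0.0181) and Aqp4 by -0.97 ± 0.26 (adjusted p = 0.0381). Slc1a2 had 3484, 2597, 1974 and 1919 CPM in mutant cerebrum and 917, 1884, 1177 and 1709 CPM in mutant cerebellum. These groups did not overlap, as was so for 23.2% of genes, but stood close, and its log2 difference of 0.80 ± 0.29 missed the threshold (adjusted p = 0.100). DESeq2 gave Slc1a2 0.81 with an adjusted p of 0.0299. Slc1a3 missed the threshold in edgeR too, at -0.75 ± 0.30 (adjusted p = 0.135). Leaving out cerebellar mutants 2 and 4, an alternative chosen after seeing the data, brought 7 of 10 genes past the threshold, with 5125 genes called in place of 2502. Among the 7 were Slc1a2 at 1.23 (adjusted p = 0.0260) and Slc1a3 at -1.18 (adjusted p = 0.00313). The cerebellar mutants that remain, 1 and 3, had more of the granule neuron markers than any wild type. Without cerebrum mutants 3 and 4, also chosen after seeing the data, S100b was the 1 gene of the 10 to pass (-1.53, adjusted p = 0.0161), with 1221 genes called; Aqp4 had -1.31 (adjusted p = 0.0538), Aldoc -0.76 (adjusted p = 0.0966) and Slc1a2 1.10 (adjusted p = 0.111). Leaving out single libraries, Slc1a3 ran from -0.97 without cerebellar mutant 4, where it passed (adjusted p = 0.0263), to -0.48 without cerebellar mutant 3 (adjusted p = 0.402). The Aldoc call was lost without cerebrum mutant 1 (-0.62, adjusted p = 0.0613), 2 (-0.69, adjusted p = 0.0697) or 4 (-0.69, adjusted p = 0.0631). That of Aqp4 was lost without cerebrum mutant 1 (-0.86, adjusted p = 0.108), 2 (-0.86, adjusted p = 0.118) or 3 (-1.05, adjusted p = 0.0691), or cerebellum mutant 2 (-0.80, adjusted p = 0.0880) or 3 (-0.82, adjusted p = 0.125).

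The wider astrocyte programme was read beside the 10 genes in wild types. Of 15 genes for potassium, transmitter and amino acid transport, 3 were higher and 5 lower in cerebrum. The list also holds metabotropic glutamate receptor genes. Of these, Grm5 was higher by 3.10 ± 0.29 (adjusted p = 3.0e-05 by edgeR) and Grm3 by 1.31 ± 0.19 (adjusted p = 4.5e-04). The cystine-glutamate exchanger Slc7a11 was higher by 1.12 ± 0.18 (adjusted p = 8.4e-04), while Atp1b2, a sodium pump subunit, was lower (-1.21 ± 0.15, adjusted p = 2.1e-04). Cortical neuron markers had a median log2 difference of 4.24 in the same comparison, and the part of neurons in these values was not tested. Of 10 endfoot and junction partners, Dmd was higher (0.66 ± 0.17, adjusted p = 0.0131) and Gpr37l1 (-1.34 ± 0.20, adjusted p = 5.4e-04) and Hepacam (-0.37 ± 0.11, adjusted p = 0.0272) were lower. Of 16 lineage transcription factors, 6 were higher and 2 lower. Lhx2, a forebrain homeobox gene, had 49.7 CPM in cerebrum and 1.46 CPM in cerebellum (log2 difference 5.22 ± 0.26, adjusted p = 7.3e-07). Nfia was lower at -0.98 ± 0.17 (adjusted p = 0.0013). Granule neuron markers had a median log2 difference of -4.52 in the same comparison. The part of neurons in the transcription factor values was not tested. Of 28 further astrocyte markers, 6 were higher and 6 lower; Dio2, the thyroid hormone activating deiodinase, was higher by 1.31 ± 0.14 (adjusted p = 6.5e-05). Of 11 Bergmann glia genes tested, 1 was higher and 7 lower in cerebrum, and Gdf10 had 9.62 against 154 CPM (-3.93 ± 0.20, adjusted p = 7.3e-07). Of 32 reactive astrocyte markers tested, 3 were higher and 7 lower. Over all genes 16.4% were higher and 14.1% lower.

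Across the 16 libraries at P42 the 10 genes did not share one profile. Profiles were compared by the root mean square difference of log2 CPM, each gene centred on its own mean, as a description in which tissue weighs most. The closest pair was Gja1 and Gjb6 at 0.26 and the farthest Slc1a2 and S100b at 1.44. Distances were not scaled to spread, so genes that vary little come out close to each other. The spread of a gene, its root mean square deviation from its own mean, was 0.17 for Gja1 and 0.29 for Gjb6. It was 0.21 for Aldh1l1 and 0.26 for Sox9, against 0.71 for Slc1a2 and 0.77 for S100b. Closeness is thus not read as shared regulation. Among 10608 genes with at least 10 CPM, Slc1a2 was most like Baalc (0.12), Jcad (0.13) and Map9 (0.15). Slc1a3 was most like Tmem63c (0.13), Odf2 and Erc1 (both 0.15). On this unscaled measure Aqp4, with a spread of 0.62 itself, had no neighbour as close. Ednrb, the endothelin B receptor gene, was at 0.22, Creb5 at 0.24 and Trpm3 at 0.29. S100b was nearest to Sgpp2 (0.17), Armh4 and Cgnl1 (both 0.22), and Aldoc to Slc39a13 (0.13), Csdc2 and Zfp687 (both 0.14). Gjb6 was nearest to Capn2 (0.08), Psmc5 (0.11) and Tecr (0.12). The nearest genes to the others were Tomm40, Fbxw5 and Phb2 (all 0.10) for Aldh1l1, Abcd3 (0.09), Ssh1 and Ago1 (both 0.10) for Gja1, Fkbp3 (0.13), Habp4 (0.14) and Rgmb (0.15) for Glul, and Sf3a1, Srsf4 (both 0.20) and Slc39a1 (0.21) for Sox9.

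The second comparison set mutants against wild types in cerebrum at P42, 14 days after tamoxifen. None of the 10 genes passed edgeR's test, in which 3 of 18205 genes (0.0165%) did. DESeq2 and the authors' deposited table also called 0 of the 10. In edgeR 2 of the 10 (Slc1a2 and Aldoc) had an unadjusted p under 0.05, as did 2299 of the 18205 genes. Slc1a2 stood at 3484, 2597, 1974 and 1919 CPM in mutants against 3163 to 4653 CPM in wild types. Only mutant 1 reached the wild type range, and the log2 difference of Slc1a2 was -0.62 ± 0.23 (95% interval -1.14 to -0.10, adjusted p = 0.371). With no filter on low counts, a setting that called 1312 genes, Slc1a2 passed at -0.61 (adjusted p = 0.00577). Slc1a3 had 536, 502, 424 and 404 CPM in mutants and 491 to 647 CPM in wild types, a log2 difference of -0.33 ± 0.15 (adjusted p = 0.397). Aldoc was at 775, 925, 974 and 925 CPM against 536 to 869 CPM, a difference of 0.40 ± 0.16 (adjusted p = 0.380). For these genes mutant 1 lay nearest the wild types.

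In mutants 1 to 4 the thalamus, hypothalamus and midbrain markers stood at 3.01, 4.50, 5.43 and 5.20 (mean log2 CPM). Mutant 1 lay nearest the wild types here too, which stood at 1.93, 1.90, 3.40 and 3.76 (wild types 1 to 4). Among wild types the order differed, since wild type 4, with the most of these markers, had the highest Slc1a2 (4653 CPM) and Slc1a3 (647 CPM). Aldoc was lowest in wild type 4 (536 CPM) and highest in wild type 3 (869 CPM). Of these 26 markers 16 had an unadjusted p under 0.05 in edgeR, as did 2299 of all 18205 genes. All 26 markers had a positive log2 difference and 0 passed in edgeR. With their level as a covariate the difference of Slc1a2 was -0.31 ± 0.27 (adjusted p = 0.808), and without mutants 3 and 4 it was -0.32 ± 0.22. Under the same settings Slc1a3 had -0.13 ± 0.18 and -0.17 ± 0.16, and Aldoc 0.23 ± 0.22 and 0.33 ± 0.20. The part of these regions in the differences was not tested further. Within single libraries, the ratio of Slc1a2 to Slc1a3 per kilobase was 3.42 ± 0.551 in mutants against 4.24 ± 0.348 in wild types, with overlapping ranges of 3.03 to 4.22 and 3.82 to 4.67.

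Elsewhere in the group S100b had 88.2, 117, 140 and 133 CPM in cerebral mutants against 89.6 to 109 CPM (0.30 ± 0.15, adjusted p = 0.428). Markers of oligodendrocytes, some of which make S100b, had positive differences for 9 of 10 (median 0.56, none past the threshold), and their part was not tested. Gjb6 had 81.3 to 92.7 against 63.5 to 82.5 CPM (0.24 ± 0.11, adjusted p = 0.410) and Aldh1l1 64.9 to 82.3 against 46.1 to 71.0 CPM (0.27 ± 0.15, adjusted p = 0.444). Aqp4 had 94.9 to 189 against 132 to 268 CPM (-0.34 ± 0.24, adjusted p = 0.541), and Gja1, Glul and Sox9 had differences of 0.06 ± 0.15, 0.10 ± 0.12 and -0.21 ± 0.18. None of the 15 transport, 10 endfoot, 16 transcription factor, 28 further or 32 tested reactive astrocyte genes passed either, and C4b, a complement gene, had the smallest p of these reactive markers with a difference of 1.01 ± 0.17 (adjusted p = 0.165).

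**Figure D3:**
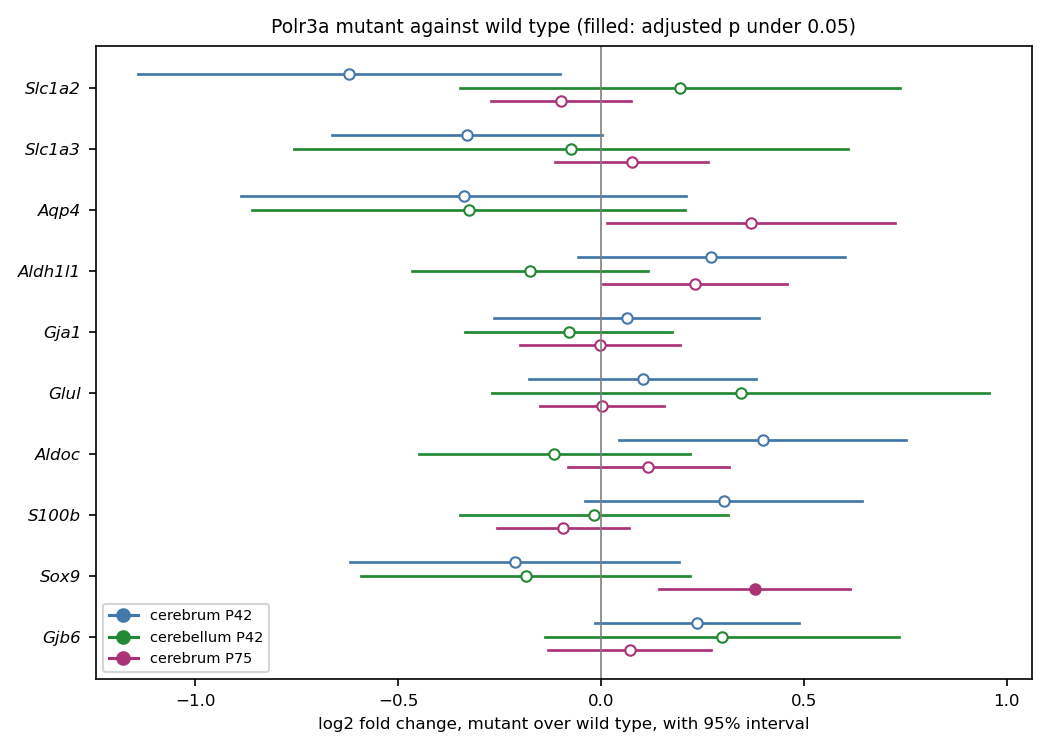
Log2 fold change of mutant over wild type (x axis) for each gene (y axis) in cerebrum at P42 (blue), cerebellum at P42 (green) and cerebrum at P75 (purple), with 95% intervals; filled points passed an adjusted p of 0.05. Sox9 at P75 (0.38) is the filled point, and the intervals at P75 are the narrowest for every gene.

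In cerebellum at P42 none of the 10 genes differed between genotypes in edgeR's test, where 2 of 17616 genes (0.0114%) passed. In that test 0 of the 10 had an unadjusted p under 0.05, against 819 of the 17616 genes. DESeq2 and the authors' deposited table called 0 of the 10. The mutant libraries disagreed among themselves. Slc1a3 was at 1112, 622, 984 and 406 CPM in mutants 1 to 4 and 691 to 1024 CPM in wild types, so that mutants 2 and 4 lay below every wild type and mutant 1 above. Slc1a2 moved the opposite way, at 917, 1884, 1177 and 1709 CPM against 1122 to 1414 CPM. In mutants 2 and 4 it exceeded every wild type. Glul, at 1316, 1998, 1208 and 2581 CPM against 1227 to 1755 CPM, and Gjb6, at 99.3, 122, 82.5 and 158 CPM against 86.1 to 101 CPM, were likewise highest in mutants 2 and 4. The within-library ratio of Slc1a2 to Slc1a3 ran from 0.536 to 2.74 in mutants, beyond the wild type range of 0.774 to 1.33 on both sides.

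Mutants 2 and 4 were also the cerebellum libraries with the lowest levels of granule neuron, Purkinje cell and Bergmann glia markers. Granule neuron markers stood at 8.43, 7.29, 8.35 and 6.82 in mutants 1 to 4 (mean log2 CPM), Purkinje cell markers at 9.03, 7.71, 8.78 and 7.33, and the 11 Bergmann glia genes at 5.85, 5.28, 5.83 and 4.97. In wild types these spanned 7.72 to 8.27, 8.11 to 8.74 and 5.72 to 6.00. Mutants 1 and 3, which remain when mutants 2 and 4 are left out, thus lay above every wild type for granule neuron and Purkinje cell markers. Oligodendrocyte markers ran from 7.58 to 8.97 in the cerebellar mutants, against 8.25 to 8.79 in wild types. Thalamus, hypothalamus and midbrain markers ran from 1.28 to 2.82 in these mutants, against 2.17 to 2.57 in wild types. The part of any of these cells in the values of the 10 genes was not tested. Without mutants 2 and 4 the differences of Slc1a2 and Slc1a3 turned sign, from 0.19 ± 0.24 to -0.26 and from -0.07 ± 0.30 to 0.34, and those of Glul and Gjb6 went from 0.34 ± 0.27 to -0.09 and from 0.30 ± 0.19 to -0.0013; 0 of the 10 passed and 210 genes were called. Aqp4 was low in a different pair, with 180 and 208 CPM in mutants 1 and 4 and 305 and 355 CPM in mutants 2 and 3, against 259 to 374 CPM in wild types (-0.33 ± 0.24, adjusted p = 0.968). S100b (-0.02 ± 0.15), Gja1 (-0.08 ± 0.11), Aldoc (-0.12 ± 0.15), Aldh1l1 (-0.18 ± 0.13) and Sox9 (-0.19 ± 0.18) had intervals that spanned 0. No gene of the other astrocyte lists passed. The 15 transport genes had a median difference of -0.03, the 10 endfoot genes -0.18 and the 11 Bergmann glia genes -0.22. The median over all genes was 0.01. Transport genes stood at 6.64, 7.38, 7.03 and 7.32 in mutants 1 to 4 (mean log2 CPM), against 7.17 to 7.32 in wild types. Reactive astrocyte markers stood at 2.61, 2.72, 2.79 and 3.26 in mutants 1 to 4, against 2.68 to 2.85 in wild types.

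**Figure D4:**
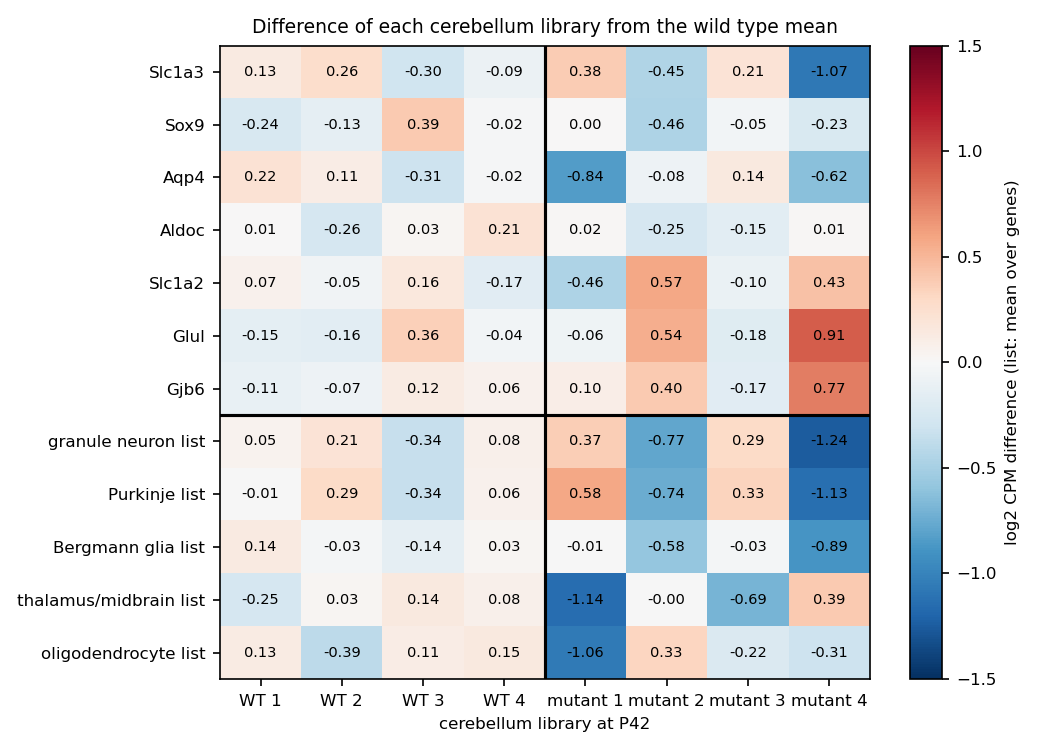
Difference of each cerebellum library at P42 (columns) from the wild type mean, on the log2 CPM scale, for 7 of the 10 genes (upper rows) and for the mean of marker lists (lower rows); red is higher, blue is lower. Mutants 2 and 4 are low for Slc1a3 (-0.45 and -1.07) and granule neuron markers (-0.77 and -1.24) and high for Glul (0.54 and 0.91) and Gjb6 (0.40 and 0.77).

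A test of whether the genotype difference depended on the tissue at P42 called 0 of 19614 genes (0%) in edgeR. An unadjusted p under 0.05 was found for 1213 genes, among them 1 of the 10 (Slc1a2). DESeq2 called 8 genes, none of them among the 10. The widest gap was that of Slc1a2, with -0.80 ± 0.34 for cerebrum minus cerebellum (95% interval -1.53 to -0.08, adjusted p = 0.732). Aldoc (0.46 ± 0.22) and Aldh1l1 (0.42 ± 0.20) had intervals from -0.0086 to 0.92 and from -0.0011 to 0.84. The gap of Slc1a2 was -0.50 ± 0.35 without cerebrum mutants 3 and 4 and -0.35 ± 0.31 without cerebellar mutants 2 and 4, and none of the 10 passed in either case.

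The third comparison, mutants against wild types in cerebrum at P75, came 47 days after tamoxifen, when 2502 of 17523 genes (14.3%) differed between genotypes. Sox9 was the only one of the 10 genes to pass, and it rose. A count of 1 of 10 lies near the share over all genes and is no result about the 10. In edgeR 3 of the 10 (Sox9, Aqp4 and Aldh1l1) had an unadjusted p under 0.05, as did 5053 of the 17523 genes. Sox9 had 48.1, 40.9, 42.3 and 38.4 CPM in mutants and 37.9, 26.7, 35.4 and 30.6 CPM in wild types. All 4 mutants lay above all 4 wild types, as was so for 10% of genes, but mutant 4 and wild type 1 almost met. The log2 difference of Sox9 was 0.38 ± 0.11 (95% interval 0.14 to 0.61, adjusted p = 0.0330 by edgeR), and the authors' deposited table gives 0.38 with an adjusted p of 0.0138. In edgeR the call was lost when mutant 1 (0.32, adjusted p = 0.122), mutant 2 (0.40, adjusted p = 0.0529), mutant 3 (0.38, adjusted p = 0.0557), wild type 2 (0.29, adjusted p = 0.0640) or wild type 4 (0.35, adjusted p = 0.0946) was left out. Over all genes 7.66% were higher and 6.62% lower; with library size alone, which moved the median gene to 0.11, 2313 were higher and 547 lower in place of 1342 and 1160.

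The glutamate pathway and the connexins did not pass at P75. Slc1a2 had 2303, 2517, 2190 and 2333 CPM in mutants and 2404, 2849, 2364 and 2411 CPM in wild types, overlapping groups with a log2 difference of -0.10 ± 0.08 (95% interval -0.27 to 0.07). The intervals of Slc1a3 (0.08 ± 0.09), Glul (0.0024 ± 0.07), Gja1 (-0.0029 ± 0.09) and Gjb6 (0.07 ± 0.09) ran from -0.11 to 0.26, from -0.15 to 0.16, from -0.20 to 0.19 and from -0.13 to 0.27. Aldoc (0.12 ± 0.09, interval -0.08 to 0.32) and S100b (-0.09 ± 0.08, interval -0.26 to 0.07) had intervals of like width. With library size alone the signs of Slc1a2 (0.0089), Gja1 (0.10) and S100b (0.01) turned.

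Aqp4 and Aldh1l1 were higher on average in P75 mutants without passing. Aqp4 had 270, 305, 163 and 175 CPM in mutants 1 to 4 and 159 to 196 CPM in wild types. Mutants 1 and 2 lay above every wild type and mutants 3 and 4 within their range, and the difference was 0.37 ± 0.17 (adjusted p = 0.156; 0.51 and adjusted p = 0.0375 without mutant 3; 0.20 without mutant 2; 0.36 and adjusted p = 2.6e-04 with no filter on low counts). Aldh1l1 had 80.1, 79.8, 62.2 and 59.2 CPM against 54.9 to 64.5 CPM, a difference of 0.23 ± 0.11 (adjusted p = 0.161). The same pair of mutants was highest for Gja1, with 271, 276, 215 and 211 CPM (wild types 237 to 252). So it was for Slc1a3, with 621, 680, 512 and 544 CPM (wild types 542 to 585). For S100b, with 112, 111, 97.6 and 98.8 CPM, and Glul, with 1555, 1551, 1542 and 1480 CPM, the pair was highest but within wild types (105 to 122 and 1360 to 1627). Slc1a2, Aldoc, Gjb6 and Sox9 did not follow the pair. Mutant 4 exceeded mutant 1 for Slc1a2, and mutant 3 exceeded mutant 1 for Aldoc and Gjb6 and mutant 2 for Sox9. Mutants 1 and 2 also carried the most of the microglia markers (6.05 and 6.06 against 5.39 and 5.19 mean log2 CPM, with wild types at 4.62 to 4.73) and of the reactive astrocyte markers (4.17 and 4.37 against 3.69 and 3.46, with wild types at 2.47 to 2.80).

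Reactive astrocyte markers rose at P75. Of 33 tested, 21 passed upwards, beside 7.66% of all genes, and none passed downwards, with a median log2 difference of 1.07, against 0.07 for the 10 genes and 0.0031 over all genes; several of these markers are also made by microglia, endothelium or interferon-exposed cells. Complement C4b went from 32.0 to 257 CPM (3.01 ± 0.25, adjusted p = 3.9e-06), and the interferon-induced genes Cxcl10, Iigp1 and Gbp2 rose by 6.03 ± 0.49, 4.39 ± 0.44 and 2.99 ± 0.27. Gfap, the intermediate filament of reactive astrocytes, named here after its values were seen, went from 219 ± 21.7 to 1206 ± 613 CPM (2.47 ± 0.28, adjusted p = 6.1e-05), while at P42 it had 0.04 ± 0.24 in cerebrum and 0.07 ± 0.27 in cerebellum. Leaving out each library in turn gave 17 to 24 reactive markers called.

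The other astrocyte lists were read against the 14.3% of all genes that passed at P75. Of 15 transport genes, the glycine transporter Slc6a9 (0.46 ± 0.08, adjusted p = 0.00248) and Slc7a11 (0.37 ± 0.09, adjusted p = 0.0184) rose, and Grm3 fell by 0.56 ± 0.12 on the log2 scale (adjusted p = 0.00751). None of 10 endfoot partners passed; Dmd had the smallest p at -0.28 ± 0.09 (adjusted p = 0.0547). Of 16 transcription factors, Lhx2 fell by 0.28 ± 0.09 on the log2 scale (adjusted p = 0.0451). Of 28 further markers, the urea transporter Slc14a1 rose (0.83 ± 0.18, adjusted p = 0.00743), and Dio2 (-0.50 ± 0.11, adjusted p = 0.0073), Btbd17 (-0.42 ± 0.12, adjusted p = 0.0248) and Mfge8, a phagocytosis bridging protein (-0.28 ± 0.08, adjusted p = 0.0399), fell. The medians of these 4 lists were -0.0020, 0.01, -0.08 and 0.0028. Of 11 genes of the Bergmann glia list tested in cerebrum, A2m rose and Gria4 fell. Counts of 0 to 4 in lists of this size lie near the share over all genes and are no result about the lists.

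**Figure D5:**
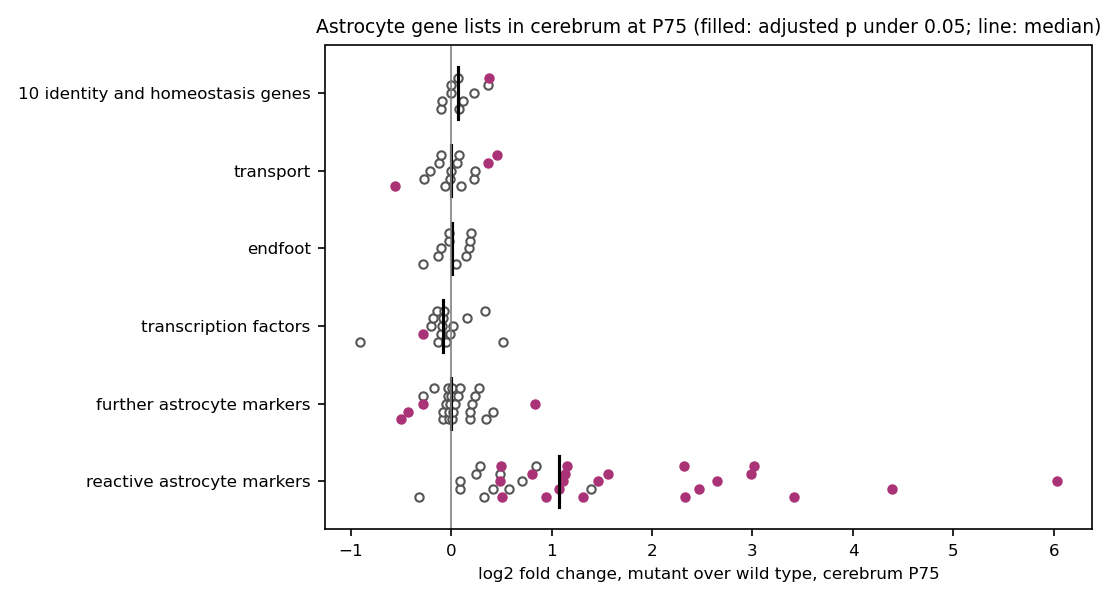
Log2 fold change of mutant over wild type in cerebrum at P75 (x axis) for each gene of 6 astrocyte lists (y axis); filled points passed an adjusted p of 0.05 and the vertical mark is the list's median. Points of the reactive list reach 6.03 with a median of 1.07, while the 10 identity genes lie between -0.10 and 0.38.

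Markers of other cell types were read beside the astrocyte genes at P75, where 7.66% of all genes were higher and 6.62% lower. Microglia markers rose for 8 of 10 and endothelial markers for 4 of 8, mural and choroid plexus markers for 1 of 8 and 1 of 10. Pan-neuronal markers fell for 7 of 10, cortical neuron markers for 6 of 10 and oligodendrocyte precursor markers for 2 of 8, while 0 of 10 oligodendrocyte and 0 of 7 granule neuron markers passed, and Purkinje cell markers fell for 2 of 7. Of the thalamus, hypothalamus and midbrain markers 3 of 26 rose and 1 fell, and of erythroid markers 0 of 5 passed. Single calls in lists of this size lie near the share over all genes. The part of any of these cells in the values of the 10 genes was not tested.

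A test of whether the genotype difference in cerebrum changed between P42 and P75 called 263 of 19273 genes (1.36%) and none of the 10. DESeq2 called none of the 10 either. In edgeR 5 of the 10 had an unadjusted p under 0.05, as did 2713 of the 19273 genes. The gaps, P75 minus P42, were 0.71 ± 0.33 for Aqp4 (adjusted p = 0.343), 0.59 ± 0.22 for Sox9 (adjusted p = 0.218), 0.53 ± 0.24 for Slc1a2 (adjusted p = 0.338), 0.41 ± 0.17 for Slc1a3 (adjusted p = 0.278) and -0.39 ± 0.17 for S100b (adjusted p = 0.305). Leaving out cerebrum mutant 1 of P42 brought Slc1a2 (0.78, adjusted p = 0.0120) and S100b (-0.54, adjusted p = 0.0203) past the threshold. Without mutant 4 of P42 Slc1a2 had 0.35 (adjusted p = 0.632), and without mutant 3 of P42 S100b had -0.29 (adjusted p = 0.530). Without both mutants 3 and 4 of P42 the gaps were 1.05 for Aqp4, 0.61 for Sox9, 0.22 for Slc1a2, 0.25 for Slc1a3 and -0.18 for S100b, and none of the 10 passed. Age here is also time since tamoxifen, the P42 and P75 libraries come from separate tables, and only the P42 groups hold females. Gfap, by contrast, passed at 2.42 ± 0.43 (adjusted p = 0.00712).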

How the data were processed

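Polyadenylated RNA of 24 libraries was sequenced; RNA was taken with Trizol, per the labels. The deposited tables hold raw read counts per gene and the gene length. The submitters' processing notes name HISAT2, DESeq2 and mm10; no source used here gives the counting tool, its strand setting or the annotation. The authors also deposited a log2 fold change and an adjusted p-value per gene and comparison, used only where named. Coordinates and lengths of 9 of the 10 genes equal those of GENCODE M21; Aqp4 differs.

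Tests used R 4.3.3 and edgeR 4.0.16 (filterByExpr, TMM, quasi-likelihood F test, two-sided, Benjamini-Hochberg over all genes tested, call at an adjusted p under 0.05). Sex was a covariate at P42. The tests were also run on simulated data, with an outcome that is not given here. All 10 genes passed the filter in every comparison. A standard error (SE) is the log2 difference over the root of F. Differences between effects were interaction terms over 16 libraries. Alternatives included DESeq2 1.42.0, other scalings and filters, a replicate block and leaving out libraries; leaving out cerebellar mutants 2 and 4 together, leaving out cerebrum mutants 3 and 4 together outside the genotype comparison of cerebrum, and every alternative for the reactive markers were chosen after seeing the data. The labels do not say that libraries came from separate animals, so p-values measure the spread between libraries. Named genes were the 10, up to 4 of each other list with the smallest p per comparison, and the 3 genes of nearest profile per gene (at least 10 CPM). The genes and lists (astrocyte transport, endfoot, transcription, further and reactive markers, Bergmann glia, and markers of neurons, other glia, vessels, choroid plexus and blood) were chosen with earlier results of these data known. Of these lists 1 symbol, Sept4, was not found. Promoter sequences are from RefSeq, GRCm38.p6, matched by symbol for 8 of the 10; Aqp4 and Sox9 were not matched.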

Additional observations from a re-analysis of the deposited data

Results flagged for a closer look

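In 60 groups of 4 libraries (10 genes in 6 groups), 2 held a library far from the other 3, where chance flags about 1 in 20 groups. Slc1a2 stood at 2849 CPM in wild type 2 of cerebrum at P75, against 2364 to 2411 CPM in the other 3 wild types. Aqp4 stood at 268 CPM in wild type 4 of cerebrum at P42, against 132 to 141 CPM in the other 3 wild types; without that library the tissue difference of Aqp4 in wild types was -1.20 (edgeR adjusted p = 1.7e-04) against -0.99 with it.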

How the results depend on the processing

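Among 1350 values of the 10 genes under alternatives, 1224 kept their direction and side of the threshold, 32 lost a call, 16 gained one and 78 turned sign; no value that passed in the report turned sign. In cerebrum at P42, genotype called 3 genes, which became 233 with DESeq2, 1312 with no filter on low counts (1 of the 10), 8 with the replicate block, and 0 with library size only, with at least 1 CPM in 4 libraries, with no sex term, without mutants 3 and 4, with the deep region covariate or at an adjusted p under 0.01. In cerebellum 2 genes became 41 with DESeq2, 153 with no filter, 210 without mutants 2 and 4, and 1 with no sex term, the block, a choroid plexus covariate or an adjusted p under 0.01. At P75, 2502 genes became 1086, 21 reactive markers 13 and the 1 called of the 10 became 0 at an adjusted p under 0.01; 2 of the 10 passed with no filter or the block. Between tissues in wild types, 5472 genes and 5 of the 10 became 2658 and 3 with the block and 3311 and 3 at 0.01. In mutants, 2502 genes and 3 of the 10 became 4333 and 5 with no filter, 31 and 0 in males only, 852 and 1 at 0.01, 5125 and 7 without cerebellum mutants 2 and 4, and 1221 and 1 without cerebrum mutants 3 and 4; the block left 1 of the 10. The tissue interaction called 8 genes with DESeq2, 279 with no filter and 1 without cerebellum mutants 2 and 4, in place of 0. The age interaction called 670 with DESeq2, 1176 with no filter (1 of the 10, Aqp4, at 0.70), 135 in males only, 132 without cerebrum mutants 3 and 4 and 100 at 0.01, in place of 263. The causes were not tested.

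Values that turned sign were, for genotype in cerebrum at P42, Gja1 (-0.12 without mutants 3 and 4) and, with the deep region covariate, Gja1 (-0.24), Glul (-0.035) and S100b (-0.021). In cerebellum they were Gja1 (0.060) and S100b (0.22) with the choroid plexus covariate and, without mutants 2 and 4, Slc1a2 (-0.26), Slc1a3 (0.34), Glul (-0.093) and Gjb6 (-0.0013). At P75 they were Glul with DESeq2 (-0.0010), RLE scaling (-9.9e-04) and no filter (-0.0018), Gja1 with the filter of 1 CPM (0.0028), and, with library size only, Slc1a2 (0.0089), Gja1 (0.10) and S100b (0.013). Between tissues they were Aldh1l1 in wild type males (0.069), and in mutants Glul with library size only (-0.013) Glul without cerebrum mutants 3 and 4 (-0.025) and Gja1 without cerebellum mutants 2 and 4 (0.012). In the tissue interaction they were Sox9 (0.034) and Gjb6 (5.1e-04) with library size only, Aqp4 (-0.31) and Gja1 (-0.019) without cerebrum mutants 3 and 4, and Glul (0.20) and Gjb6 (0.24) without cerebellum mutants 2 and 4; in the age interaction Aldh1l1 (8.1e-04 with library size only, 0.24 in males only) Aldoc (0.018 in males only) and Gja1 (0.12 without cerebrum mutants 3 and 4).

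Leaving out each library in turn gave 0 to 11 genes called in cerebrum at P42, 1 to 2 in cerebellum, 1356 to 2783 at P75, 4074 to 5856 between tissues in wild types and 1155 to 3416 in mutants, 0 to 2 in the tissue interaction and 124 to 1169 in the age interaction. Of the 10 genes, 0 to 1 passed at P75, 4 to 5 between tissues in wild types, 1 to 4 in mutants and 0 to 2 in the age interaction, and 17 to 24 reactive markers passed at P75. Values whose range crossed 0 were Gja1 (-0.023 to 0.16) in cerebrum at P42; S100b (-0.19 to 0.10), Slc1a2 (-0.083 to 0.45) and Slc1a3 (-0.36 to 0.10) in cerebellum; Gja1 (-0.070 to 0.063), Gjb6 (-0.0061 to 0.16), Glul (-0.053 to 0.028) and Slc1a3 (-9.4e-04 to 0.14) at P75. Between tissues they were Aldh1l1 (-0.26 to 0.073) and Sox9 (-0.40 to 0.019) in wild types and Gja1 (-0.14 to 0.0075) and Glul (-0.16 to 0.28) in mutants. In the tissue interaction they were Aqp4 (-0.14 to 0.29), Gjb6 (-0.21 to 0.093), Slc1a3 (-0.42 to 0.044) and Sox9 (-0.18 to 0.16), and in the age interaction Aldh1l1 (-0.13 to 0.063) and Gja1 (-0.16 to 0.019).

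Samples of different groups share only a replicate number: correlations of same-numbered deviations ran from 0.012 to 0.248 in cerebrum at P42, from -0.339 to 0.084 in cerebellum from 0.026 to 0.141 at P75, from -0.201 to 0.164 between wild type tissues and from -0.140 to 0.193 between mutant tissues. At P75 all 4 mutants matched the wild type of their own number best, a hint from the data and not from the design. With the replicate block, Aqp4 at P75 passed (0.32, adjusted p = 0.0444), Slc1a3 (-0.45) and Aqp4 (-0.81) between wild type tissues and Aqp4 (-0.96) and Aldoc (-0.69) between mutant tissues did not; the block changed no other call of the 10. Sox9, the lowest of the 10 genes, had 26.1 to 50.2 CPM, and all 10 passed the filter on low counts in every comparison.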
